A study of Mus musculus with 16 samples.

Results

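The interleukin 12 family consists of secreted cytokines that each pair an alpha chain with a beta chain, and its 5 subunit genes are Il12a, Il23a, Il27, Il12b and Ebi3. A probe was taken as a member where the platform annotation names one of these genes, which gave 5 of the 25697 probes, for 4 of the 5 genes and of the 16558 genes the array names. They were followed on 16 Illumina mouse bead arrays of RNA from primary bone marrow derived macrophages of male wildtype c57Bl6/J mice aged 10 weeks. Cells of every group came from such mice, were held overnight in 1 µM dexamethasone (Dex), a drug that activates the glucocorticoid receptor, or in its ethanol vehicle, and were then stimulated with lipopolysaccharide (LPS), the bacterial ligand of Toll-like receptor 4, or left unstimulated. The 4 treatments (Dex then LPS, vehicle then LPS, Dex alone, vehicle alone) were run in an experiment with 6 h of LPS and in another with 3 h of LPS, with 2 arrays per treatment in each. Arrays of 1 group are technical replicates by their labels, so SDs and p-values here reflect the spread of arrays and not that of cultures.

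The alpha chains are helical cytokines, and the beta chains resemble soluble cytokine receptors. The p35 chain (Il12a) with the p40 chain (Il12b) makes interleukin 12, which drives interferon gamma production by T and NK cells. The p19 chain (Il23a) with the same p40 makes interleukin 23, which maintains T cells that secrete interleukin 17, and the p28 chain (Il27) with EBI3 makes interleukin 27, which both primes and restrains T cell responses. Macrophages and dendritic cells that sense microbial products are the main sources, and glucocorticoids are known to lower interleukin 12 output in such cells.

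Il12b has no probe in the platform annotation. A symbol column of the 6 h table alone gives its name to ILMN_2756639, and that probe was detected (detection p under 0.05, the chance that background gives the signal) on 0 arrays of either experiment. Its signal, an intensity on a linear scale, was 107.9 to 155.3 at 6 h and 127.1 to 159.7 at 3 h, and its lowest detection p was 0.378 and 0.168. Il12b was therefore not tested. The other 4 genes had 1 probe each, apart from Il23a with 2.

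The labels of the 3 h experiment were checked before any result, with genes that respond to LPS (Il6, Tnf) and to Dex (Fkbp5). At 6 h, Il6 signal averaged 3998 ± 175 on the LPS arrays and 158.5 ± 12.2 on the unstimulated arrays, and Fkbp5 averaged 2990 ± 223 on the Dex arrays and 250.7 ± 46.4 on the unstimulated arrays (SD, n = 2 each). At 3 h, Il6 averaged 2921 ± 202 on the LPS arrays and 1941 ± 15.6 on the arrays labelled unstimulated, Tnf was near the top of the scale on all 8 arrays, and Fkbp5 averaged 239.2 ± 12.1 on the arrays labelled Dex and 238.6 ± 12.9 on those labelled unstimulated. Levels on the 3 h arrays labelled Dex and unstimulated thus went against their labels, and comparisons with them are given only as values of the arrays so labelled. For Dex plus LPS against LPS at 3 h the labels were not contradicted, with Fkbp5 at 1872 ± 155 in Dex plus LPS and 250.9 ± 33.8 in LPS. Arrays of the 6 h experiment had 10407 to 11281 detected probes, those of the 3 h experiment 11273 to 11921. Precision is limited by how few arrays each group has.

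Among cell type markers, 7 of 8 macrophage genes had a probe and all 7 were detected on every array. Dendritic cell genes, a type that also makes these cytokines, had a probe in 8 of 8 cases, and 7 of them (Flt3, Zbtb46, Itgax, Cd209a, Xcr1, Clec9a, Siglech) were detected on 0 arrays. The T or NK cell genes were detected on 0 arrays in 7 of 7 cases. Of the neutrophil genes 5 had a probe and were detected on every array, led by S100a8 with group means of 33600 to 40000 at 6 h. Of the B cell genes Cd79b was detected on 5 arrays at 6 h and Ms4a1 on 0.

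The 3 alpha chain genes, Il12a, Il23a and Il27, were higher after 6 h of LPS than in unstimulated macrophages, whereas Ebi3, detected on every array, was not called. Dex overnight before LPS left the 3 alpha chain genes lower than LPS alone, by 3.45-fold for Il23a, 2.44-fold for Il12a and 2.11-fold for Il27. These sizes and their order depended on the processing. Without background correction the log2 differences of Il23a (-0.93) and Il27 (-0.95) were under 2-fold and only Il12a was called. In the authors' cubic spline table none was called and Il23a was not lower. In that table, however, 0 of all 7791 tested genes were called for this comparison, and 0 for Dex alone. The Il27 call was close to both thresholds. After Dex plus LPS, Il12a and Il27 were still called above the unstimulated level. Il23a was not, since its fitted difference of 0.65 (adjusted p = 0.0207), against arrays at background, was short of 2-fold. In bulk RNA, fewer cells that express a gene and less of its RNA per cell cannot be told apart.

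**Figure D1:**
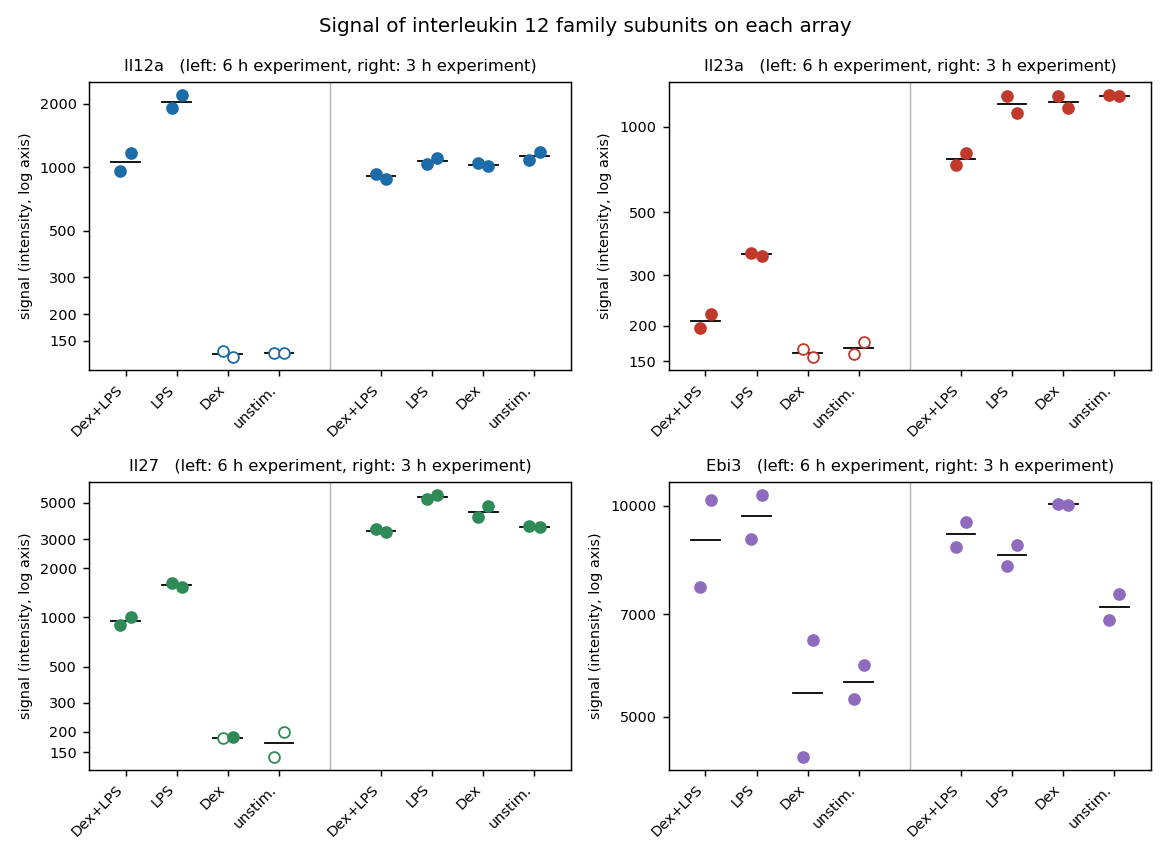
Signal of the 4 measured subunit genes on each of the 16 arrays (intensity, log axis), with the 6 h experiment on the left of each panel and the 3 h experiment on the right. Points are arrays, open where the detection p was 0.05 or more, and bars are means of 2 arrays; at 6 h Il12a had 957.2 and 1164 on the Dex plus LPS arrays, below the 1908 and 2193 of the LPS arrays and above the undetected Dex and unstimulated arrays.

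Il12a encodes p35, the chain whose supply is commonly limiting for interleukin 12. Its probe gave 1908 and 2193 on the LPS arrays at 6 h, against 130.6 and 131.3 on the unstimulated arrays, where it was not above background. The arrays did not overlap. Because the unstimulated arrays give only a bound, the change is at least 27.8-fold (fitted log2 difference against background 5.98 ± 0.17, SE, adjusted p = 2.39e-08); such bounds set the mean of the brighter group against, per array, the higher of the dim probe's own value and the lowest signal above background.

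Il23a encodes p19, the chain that sets interleukin 23 apart from interleukin 12. It reached 360.5 and 351.4 on the LPS arrays, against 159.2 and 174.8 on the unstimulated arrays, both undetected. The increase was at least 3.57-fold (fitted log2 difference 2.44 ± 0.18, adjusted p = 6.61e-06). Its other probe, ILMN_2799748, was undetected on all 8 arrays of the 6 h experiment, at 115.6 to 158.2.

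Il27 encodes p28. It had 1615 and 1532 on the LPS arrays, against 141.1 and 200.2 on the unstimulated arrays, again undetected without LPS. The increase was at least 21.4-fold (fitted log2 difference 4.98 ± 0.25, adjusted p = 6.05e-07).

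Ebi3, the beta chain that pairs with p28, was detected on all arrays. It had 8956 and 10350 on the LPS arrays, against 5289 and 5931 on the unstimulated arrays. The arrays did not overlap in signal, but the normalized log2 difference of 0.48 ± 0.23 did not pass the test (95% interval -0.04 to 0.99, adjusted p = 0.13). Under the alternatives other than leaving out 1 array the difference was 0.19 to 0.77, always under 2-fold. Its lowest adjusted p there was 0.0163, so only the lack of a 2-fold change held throughout.

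Calls required a change of 2-fold or more together with an adjusted p below 0.05. By that rule 3 of the 4 measured subunit genes rose with LPS at 6 h, where 17.1% of all tested genes were called and 8.36% were called higher, with a median difference of -0.09 over all genes. Il12a, Il23a and Il27 entered the test only through the groups given LPS, so this count describes them and carries no further weight. In the authors' deposited cubic spline table the difference was 0.87 for Il12a and 0.05 for Il23a, neither called. When arrays were scaled to a common median instead, 845 genes were called higher and 481 lower in this comparison, against 651 and 682, the median of all genes moved to 0.051, and Il12a, Il23a and Il27 were called higher there too. Marker sums, here and below, are of signal before normalization. The summed signal of the 7 macrophage markers was 192701 to 201150 on the LPS arrays and 143883 to 171488 on the unstimulated arrays. After normalization the median log2 difference of these 7 markers was -0.26, with 1 called higher and 0 lower. The sum of the 2 B cell markers was 304 to 322 on the LPS arrays and 368 to 416 on the unstimulated arrays. The part of these markers in the result was not tested.

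The promoters of Il12a and Ebi3 are shown because Il12a was called with LPS and Ebi3 was not. The sequences are from RefSeq, run from 250 bases before to 50 bases after each annotated start, and have motif matches in capitals. Il23a and Il27 are not listed in the promoter table used.
Il12a, first start, GRCm38.p6 chr3:68690394-68690693, plus strand: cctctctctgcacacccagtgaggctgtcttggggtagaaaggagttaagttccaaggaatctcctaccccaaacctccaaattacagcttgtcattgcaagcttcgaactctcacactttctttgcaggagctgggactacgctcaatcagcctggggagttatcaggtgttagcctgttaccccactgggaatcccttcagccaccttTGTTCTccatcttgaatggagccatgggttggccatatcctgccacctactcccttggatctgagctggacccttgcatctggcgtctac
Il12a, second start, GRCm38.p6 chr3:68691174-68691473, plus strand: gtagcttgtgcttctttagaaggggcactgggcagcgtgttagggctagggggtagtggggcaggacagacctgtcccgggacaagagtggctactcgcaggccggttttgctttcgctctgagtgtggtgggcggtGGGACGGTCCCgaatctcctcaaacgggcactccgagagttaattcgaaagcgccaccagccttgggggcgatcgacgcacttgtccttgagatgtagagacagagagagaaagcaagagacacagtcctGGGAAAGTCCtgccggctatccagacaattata
Ebi3, GRCm38.p6 chr17:55952373-55952672, plus strand: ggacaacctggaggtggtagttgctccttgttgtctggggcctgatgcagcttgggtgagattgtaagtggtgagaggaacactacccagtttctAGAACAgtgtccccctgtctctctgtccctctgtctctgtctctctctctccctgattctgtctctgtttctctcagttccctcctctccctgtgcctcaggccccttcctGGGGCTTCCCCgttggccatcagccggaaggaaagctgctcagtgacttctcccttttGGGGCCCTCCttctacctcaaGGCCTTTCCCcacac

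The capitals mark matches on either strand to NF-kB (GGG and CC with 5 bases between), the site family bound by the Rel proteins that LPS activates, and to the glucocorticoid response element's 6-base core (AGAACA, or TGTTCT on the other strand). Searched as well were AP-1 (TGANTCA), ISRE (GAAA and GAAA with 2 bases between), the full glucocorticoid response element (AGAACA and TGTTCT with 3 bases between), C/EBP (TTNNGCAA) and the TATA box (TATAAA), with no match in these 3 windows. Counting the start base as 0, the first Il12a window held a glucocorticoid core at -40 to -35. The second Il12a window held overlapping NF-kB matches on opposite strands between -113 and -103, GGGACGGTCCC, and another at 17 to 26, GGGAAAGTCC. The Ebi3 window held an NF-kB stretch between -44 and -34, GGGGCTTCCCC, which matched in 4 overlapping ways, further NF-kB matches at 14 to 23 and 35 to 44, and a glucocorticoid core at -155 to -150. Of 32851 promoter windows of this length, 50.8% held the NF-kB pattern and 19% the glucocorticoid core, so a match is a description of these letters and not a bound site. NF-kB patterns are present in the second window of Il12a, which was called with LPS, but not in its first window. They are also present in the window of Ebi3, which was not called.

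**Figure D2:**
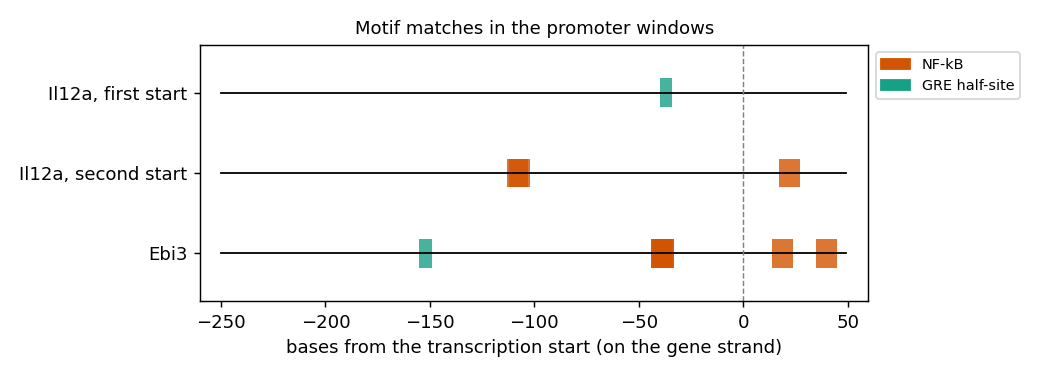
Positions of motif matches in the promoter windows of Il12a (both annotated starts) and Ebi3, in bases from the transcription start on the gene's strand. Orange blocks are NF-kB pattern matches (50.8% of all promoter windows hold one) and green blocks the glucocorticoid core (19%); darker blocks are overlapping matches.

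Dex before LPS lowered the 3 alpha chain genes at 6 h relative to LPS alone. Il23a had 196.5 and 219.3 on the Dex plus LPS arrays, against 360.5 and 351.4 on the LPS arrays, and its detection p on the Dex plus LPS arrays was 0.0376 and 0.0263. The log2 difference was -1.79 ± 0.18 (3.45-fold lower, 95% interval -2.19 to -1.39, adjusted p = 0.000406), rank 26 from the lowest of 7791 genes. This difference was -0.93 without background correction, below 2-fold, and 0.1 with an adjusted p of 0.613 in the authors' deposited cubic spline table.

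Il12a had 957.2 and 1164 on the Dex plus LPS arrays, against 1908 and 2193 on the LPS arrays. Both Dex plus LPS arrays lay below both LPS arrays, and the log2 difference was -1.28 ± 0.17 (2.44-fold lower, 95% interval -1.67 to -0.90, adjusted p = 0.00199). Il27 had 897.6 and 999.5 on the Dex plus LPS arrays, against 1615 and 1532 on the LPS arrays. Its log2 difference was -1.07 ± 0.25 (2.11-fold lower, 95% interval -1.63 to -0.51, adjusted p = 0.0297). The Il27 call was close to both thresholds. The difference was under 2-fold without background correction (-0.95, adjusted p = 0.00245) and in the authors' processed values (-0.98, adjusted p = 0.000666). The call was also lost with LPS array 1 left out (-1.03, adjusted p = 0.174), LPS array 2 (-1.12, adjusted p = 0.134), Dex plus LPS array 1 (-1.18, adjusted p = 0.133) or Dex plus LPS array 2 (-0.97, adjusted p = 0.211), and without the filter on dim probes (-1.07, adjusted p = 0.0718). In the authors' deposited cubic spline table the difference was -0.14 for Il12a and -0.20 for Il27, neither called.

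Ebi3 had 7661 and 10200 on the Dex plus LPS arrays, against 8956 and 10350 on the LPS arrays, and the groups overlapped. The difference was -0.22 ± 0.23 (95% interval -0.73 to 0.30, adjusted p = 0.627), so a decrease as large as that of Il12a lies outside the interval and one of up to 0.73 does not.

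In this comparison 3 of the 4 measured subunit genes were called lower, where 3.76% of tested genes were called and 2.45% were called lower. The median difference was -1.18 over the 4 genes and 0.06 over all genes. With median scaling 204 genes were called higher and 152 lower, against 102 and 191, the median of all genes moved to 0.204, and Il27 at -0.91 fell short of 2-fold. The summed signal of the 7 macrophage markers was 197533 to 214998 on the Dex plus LPS arrays and 192701 to 201150 on the LPS arrays, and that of the 5 neutrophil markers was 45184 to 49046 and 45160 to 48820. The sum of the 8 dendritic cell markers, near background, was 1134 to 1197 and 1118 to 1188. Each of these pairs of ranges overlaps, although 1 of the 7 macrophage markers was called lower and 0 higher. The sum of the 2 B cell markers was 341 to 365 on the Dex plus LPS arrays and 304 to 322 on the LPS arrays, and its part in the result was not tested.

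**Figure D3:**
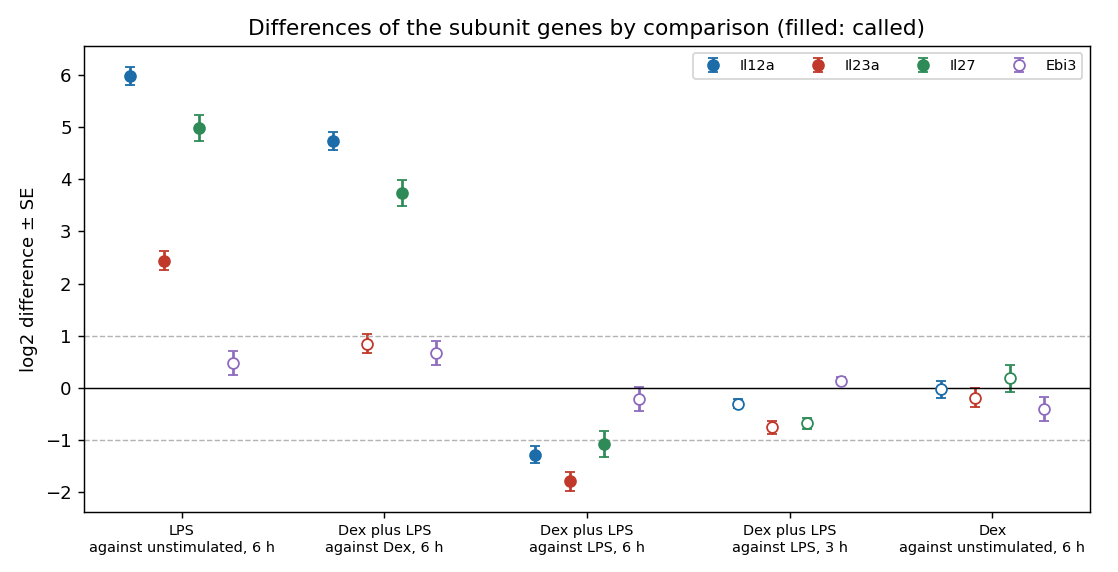
Difference of each subunit gene in 5 comparisons, as the log2 difference of group means with its SE (vertical axis), each comparison on 2 arrays per group. Filled points were called; Il12a, Il23a and Il27 are called higher with LPS and lower with Dex plus LPS against LPS at 6 h (-1.28, -1.79 and -1.07; Il23a is at 0.1 in the authors' cubic spline table), and Ebi3 is called in none.

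The LPS response that remained after Dex was compared with both unstimulated controls. Il12a on the Dex plus LPS arrays was at least 13.3-fold above the Dex arrays, which had 134.1 and 125.5 (fitted log2 difference 4.73 ± 0.17, adjusted p = 8.37e-08), and at least 11.4-fold above the unstimulated arrays. Il27 was called above the Dex arrays, which had 182.2 and 186.6 with 1 of 2 detected (fitted log2 difference 3.73 ± 0.25, adjusted p = 4.05e-06), and was at least 10.1-fold above the unstimulated arrays. Il23a on the Dex plus LPS arrays was at least 1.2-fold above the Dex arrays, which had 165.1 and 155.3 (adjusted p = 0.00579), and at least 1.03-fold above the unstimulated arrays (adjusted p = 0.0207). Neither was called, since the fitted differences of 0.85 ± 0.18 and 0.65 ± 0.18 were short of 2-fold, but the Dex and unstimulated arrays were at background and give only these bounds. Ebi3 differed by 0.66 ± 0.23 from the Dex arrays, which had 4383 and 6424 (adjusted p = 0.0556). With Dex array 2, the higher one, left out that difference was 1.01 and was called (adjusted p = 0.00543). Against Dex, 2 of 4 subunit genes were called higher where 13.5% of genes were called (6.75% higher), and against unstimulated arrays 2 of 4 where 13.7% were (6.93% higher). Il12a and Il27 entered the test only through the groups given LPS, so these counts describe them and carry no further weight.

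Dex alone was not accompanied by a called change in any subunit gene at 6 h, where 3.52% of tested genes were called. Il12a and Il23a were below background on the Dex and the unstimulated arrays, so no fold is given. Nor is one given for Il27, which was above background on 1 of 2 Dex arrays and on 0 unstimulated arrays. Ebi3 differed by -0.40 ± 0.23 (95% interval -0.91 to 0.12, adjusted p = 0.314). With 1 array left out at a time the Ebi3 difference ranged from -0.75 to -0.05. Fkbp5 on the same arrays is given above. 
Over the 4 groups at 6 h, normalized log2 levels of Il12a were 9.67 ± 0.07 in Dex plus LPS, 10.96 ± 0.12 in LPS, 4.95 ± 0.07 in Dex and 4.98 ± 0.16 unstimulated (SD, n = 2 each). Il23a was at 6.21 ± 0.06, 8.0 ± 0.04, 5.36 ± 0.17 and 5.56 ± 0.20 in the same groups, and Il27 at 9.51 ± 0.15, 10.58 ± 0.07, 5.77 ± 0.40 and 5.60 ± 0.44. For these genes LPS was highest and Dex plus LPS next, and Dex and unstimulated, mostly below background, have no order. Ebi3 was at 12.95 ± 0.04 in Dex plus LPS, 13.16 ± 0.13 in LPS, 12.28 ± 0.50 in Dex and 12.68 ± 0.13 unstimulated. Its order was LPS, Dex plus LPS, unstimulated, Dex, and no neighbours in that order passed the test.

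Whether Dex changed the LPS response itself was tested by the interaction, the LPS difference with Dex minus that without. It was -1.59 ± 0.25 for Il23a (95% interval -2.16 to -1.03, adjusted p = 0.0344), which was called where 0.565% of genes were (0.372% lower). It was -1.25 ± 0.24 for Il12a (adjusted p = 0.0558), -1.25 ± 0.36 for Il27 (adjusted p = 0.148) and 0.18 ± 0.33 for Ebi3 (adjusted p = 0.818). The Il12a value passed with an offset of 50 (-1.23, adjusted p = 0.0274), and without background correction Il12a (-1.14, adjusted p = 0.0197) and Il27 (-1.04, adjusted p = 0.0442) passed. The Il23a call was lost without background correction (-0.83, adjusted p = 0.0512), without the filter on dim probes (-1.59, adjusted p = 0.0504) and in the authors' processed values (-0.61, adjusted p = 0.151). It was also lost when either unstimulated array, either LPS array, either Dex plus LPS array or Dex array 1 was left out (-1.45 to -1.74, adjusted p 0.0575 to 0.217), and it was 0.08 in the authors' deposited cubic spline table. The unstimulated and Dex levels of Il12a and Il23a behind these values were at background, as were those of Il27 on all but 1 Dex array, and the interaction for the 3 genes rests on such levels.

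**Figure D4:**
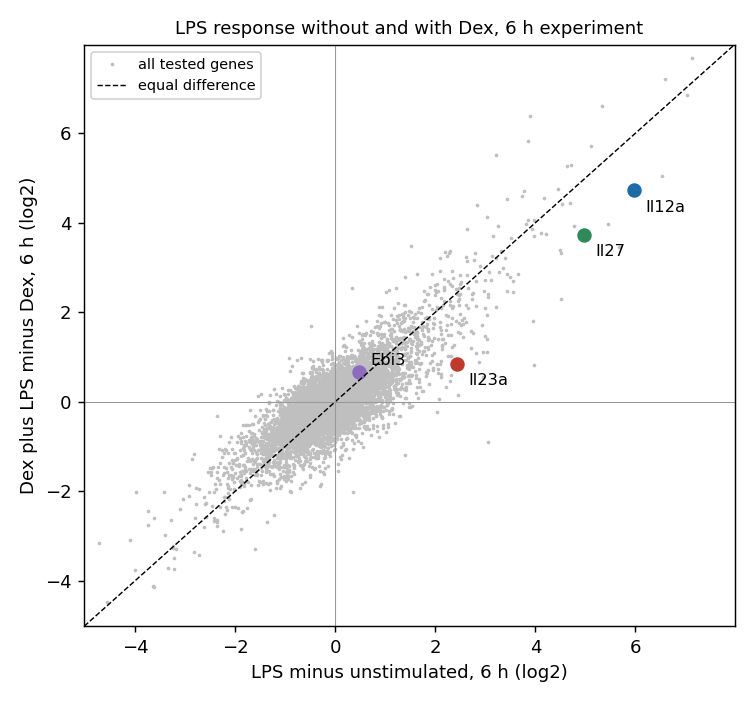
LPS difference without Dex (LPS minus unstimulated, horizontal axis) against that with Dex (Dex plus LPS minus Dex, vertical axis) at 6 h, in log2, for the 7791 tested genes in grey and the subunit genes in colour. On the dashed line both are equal. Values are fitted ones, which for the alpha chain genes rest on levels at background without LPS; Il12a (5.98 and 4.73), Il27 (4.98 and 3.73) and Il23a (2.44 and 0.85) lie below it, and Ebi3 (0.48 and 0.66) lies near it.

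At 3 h the alpha chain genes were again lower with Dex plus LPS than with LPS, by less than 2-fold, and none was called where 3.44% of genes were called. Il23a had 733.4 and 805.4 on the Dex plus LPS arrays, against 1282 and 1120 on the LPS arrays, without overlap. Its log2 difference was -0.76 ± 0.13 (1.7-fold, adjusted p = 0.00655). The other Il23a probe, detected on 0 Dex plus LPS arrays and 1 LPS array, had 146.4 and 155.7 against 167.8 and 177.8, a difference of -0.51 ± 0.13 (adjusted p = 0.0284 over 11801 probes).

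Il27 had 3469 and 3316 on the Dex plus LPS arrays, against 5270 and 5583 on the LPS arrays at 3 h. The difference was -0.68 ± 0.10 (1.6-fold, adjusted p = 0.00492). Il12a had 926.8 and 880.9 on the Dex plus LPS arrays, against 1032 and 1108 on the LPS arrays, a difference of -0.30 ± 0.08 (adjusted p = 0.0361; 0.0877 in a fit of these 4 arrays alone). Ebi3 had 8733 and 9472 on the Dex plus LPS arrays, against 8202 and 8796 on the LPS arrays, and the groups overlapped (0.14 ± 0.07, adjusted p = 0.192). The summed signal of the 5 neutrophil markers, of which none was called, was 49279 to 54194 on the Dex plus LPS arrays and 34948 to 38693 on the LPS arrays, and the B cell pair had 369 to 370 and 307 to 337. After normalization the median log2 difference of the 5 neutrophil markers was -0.22, opposite in direction to their sum. The macrophage sum was 193264 to 201598 on the Dex plus LPS arrays and 215838 to 216114 on the LPS arrays, and of its 7 markers 1 was called lower and 0 higher. The part of these markers in the differences was not tested.

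On the 3 h arrays labelled Dex and unstimulated the alpha chain genes were not at background. Il12a had 1048 and 1011 on the arrays labelled Dex and 1077 and 1184 on those labelled unstimulated, near the LPS arrays. Il23a had 1281 and 1165, against 1288 and 1281, and Il27 had 4092 and 4763, against 3612 and 3543. Ebi3 had 10060 and 10020 on the arrays labelled Dex and 6863 and 7491 on those labelled unstimulated, a difference of 0.37 ± 0.07 (adjusted p = 0.0267) that was under 2-fold. No subunit gene was called for LPS against the arrays labelled unstimulated (2.91% of genes called), Dex plus LPS against those labelled Dex (2.80%) or Dex against unstimulated (0.759%). These values stand with Il6 and Fkbp5 above, which went against the same labels.

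The Dex effect under LPS was called as different between 6 h and 3 h for 1 of the 4 subunit genes, Il23a. For Il23a the 6 h difference minus the 3 h difference was -1.02 ± 0.21 (95% interval -1.47 to -0.57, adjusted p = 0.039), called where 0.737% of genes were (0.442% lower). The Il23a value was -0.27 without background correction (adjusted p = 0.386), -0.37 in the authors' processed values (adjusted p = 0.228), -0.69 with an offset of 50 (adjusted p = 0.0705) and -0.83 with median scaling (adjusted p = 0.059), none of them called, and without the filter on dim probes its adjusted p was 0.0757. The call was also lost when any LPS or Dex plus LPS array of the 6 h experiment or any of the 8 arrays of the 3 h experiment was left out (-0.86 to -1.18, adjusted p 0.0614 to 0.167). For Il12a it was -0.99 ± 0.17 (adjusted p = 0.031), just under 2-fold and so not called. The Il12a value did not pass the adjusted p threshold in every fit with 1 array left out (-1.07 to -0.91). For Il27 the 6 h difference minus the 3 h difference was -0.40 ± 0.29 (adjusted p = 0.514) and for Ebi3 -0.36 ± 0.26 (adjusted p = 0.504). With only the LPS and Dex plus LPS arrays of the 3 h experiment, normalized without the arrays whose labels are in doubt, the differences were -1.03 for Il23a (adjusted p = 0.104) and -0.99 for Il12a (adjusted p = 0.0926), and 0 subunit genes were called. Time and experiment cannot be told apart here, and per the labels RNA was extracted by different protocols in the 2 experiments.

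**Figure D5:**
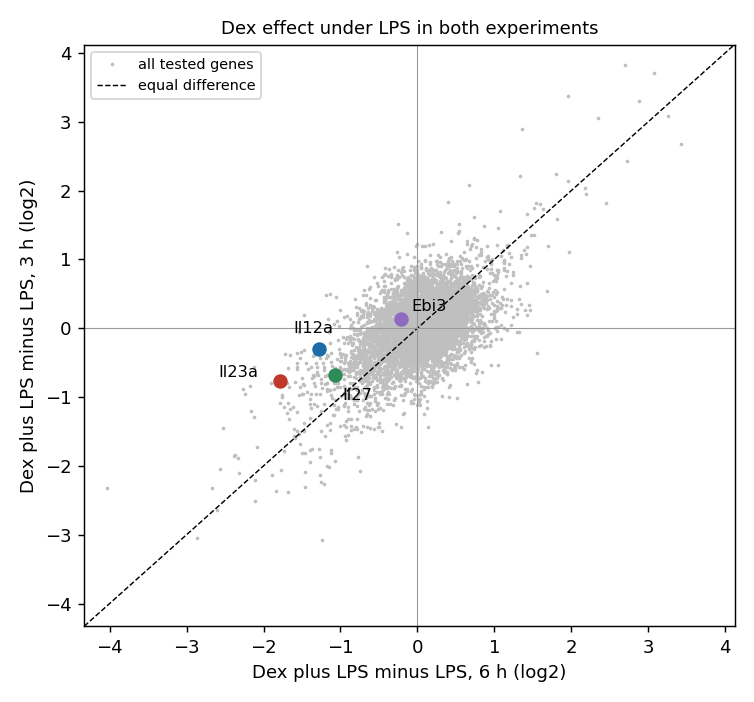
Difference of Dex plus LPS minus LPS at 6 h (horizontal axis) and at 3 h (vertical axis), in log2, for the 7458 genes tested in both experiments in grey and the subunit genes in colour. Il23a (-1.79 and -0.76; 0.1 at 6 h in the authors' cubic spline table), Il12a (-1.28 and -0.30) and Il27 (-1.07 and -0.68) lie in the lower left with the larger value at 6 h, and Ebi3 (-0.22 and 0.14) lies near the origin.

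Of the genes for receptors and signalling, 3 receptor chains were not detected and 3 signalling genes responded to LPS. Il12rb1, Il12rb2 and Il23r, the receptor chains that bind these cytokines, and Tbx21, a transcription factor they induce in T cells, were detected on 0 arrays. Il27ra, the receptor chain for interleukin 27, was detected on 2 arrays at 6 h and 5 at 3 h, and Il6st, its shared partner chain, on 5 at 6 h and 8 at 3 h. Of 12 listed genes 6 were tested at 6 h, and 3 rose with LPS: the kinase Jak2 (2.30 ± 0.19, adjusted p = 1.54e-05), the interleukin 12 signal transducer Stat4 (1.88 ± 0.22, adjusted p = 0.000146) and the kinase Tyk2 (1.27 ± 0.17, adjusted p = 0.000287). None fell, and the median of the tested genes was 0.89, where 17.1% of all tested genes were called and their median was -0.09. With Dex plus LPS against LPS at 6 h 1 fell, Stat4 at -1.49 ± 0.22 (adjusted p = 0.00374), where 3.76% of all tested genes were called, and 0 were called at 3 h, where 3.44% were.

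Transcription factors known to act on these genes numbered 25, of which 21 were tested at 6 h. With LPS 7 rose and 1 fell, where 17.1% of all tested genes were called, with a median of 0.83, against -0.09 over all genes. The risers were led by Nfkbiz, an IkB protein of the nucleus (3.00 ± 0.26), Rel, an NF-kB subunit known to act on genes of this family in mouse myeloid cells (at least 6.1-fold), Batf (2.54 ± 0.22) and Irf1 (1.93 ± 0.20). Fos, an AP-1 subunit, fell (-1.48 ± 0.19). Rel was below background on the unstimulated arrays. Genes at background without LPS enter the test only through groups given LPS, so the count of risers carries no further weight. With Dex plus LPS against LPS at 6 h only Atf3, a stress-induced repressor of the CREB family, fell (-1.37 ± 0.19, adjusted p = 0.0022) and none rose, where 3.76% of all tested genes were called and 2.45% were called lower. At 3 h Atf3 (-1.76 ± 0.10) and Irf1 (-1.21 ± 0.08) fell and Jun rose (1.84 ± 0.11), of 20 tested, where 3.44% of all genes were called.

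Partner and target cytokines numbered 12, of which 8 were tested at 6 h and 7 rose with LPS, with a median of 3.7, where 8.36% of all tested genes were called higher and their median was -0.09. Among them were Il6 (at least 54.2-fold), Ifnb1, interferon beta (3.97 ± 0.19), the co-stimulatory receptor Cd40 (3.44 ± 0.19) and Il15 (1.96 ± 0.20). Il6, undetected on the unstimulated and Dex arrays, entered the test only through the groups given LPS, so this count carries no further weight. With Dex plus LPS against LPS at 6 h 4 fell and none rose, where 2.45% of all tested genes were called lower: Ifnb1 (-4.03 ± 0.19), Il6 (-1.68 ± 0.18), Il15 (-1.46 ± 0.20) and Il10 (at least 2.1-fold lower). Il10, given as a bound, was below background on the Dex plus LPS arrays and entered the test only through other groups. The count of genes that fell therefore carries no further weight either. At 3 h 4 of 9 fell, where 3.44% of genes were called in either direction, namely Ifnb1 (-2.32 ± 0.09), Il15 (-1.81 ± 0.09), Csf2 (-1.12 ± 0.29) and Cd40 (-1.05 ± 0.07).

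The genes most like each subunit were found by Pearson correlation of normalized log2 values over the 16 arrays, each experiment's mean subtracted, among 7458 genes. The arrays share treatments and, within a group, a source of RNA, so the values are descriptions. Il12a was most like Il6 (r = 0.992), the neutrophil chemokine Cxcl2 (0.990) and the myeloid receptor Tarm1 (0.989). Il27 was most like Il6 (0.989), Il12a (0.986) and Tarm1 (0.986). Il23a was most like Tnfsf10, the death ligand TRAIL (0.992), Arel1 (0.971) and Akap7 (0.964), and Tnfsf10 differed by -2.27 ± 0.23 with Dex plus LPS against LPS at 6 h. Ebi3 was most like Rbm42 (0.931), Cdr2 (0.905) and Pdlim7 (0.902). Within the 8 arrays of the 3 h experiment alone some of these values were much lower. Il12a gave 0.153 with Il6, 0.75 with Cxcl2 and 0.94 with Tarm1 there, and Il27 gave 0.824 with Il6, 0.307 with Il12a and 0.324 with Tarm1. Il23a gave 0.965 with Tnfsf10, 0.92 with Arel1 and 0.932 with Akap7, and Ebi3 gave 0.728 with Rbm42, 0.661 with Cdr2 and 0.391 with Pdlim7.

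Between subunits the correlation was 0.986 for Il27 with Il12a, 0.839 for Il23a with Il12a and 0.825 for Il27 with Il23a. Ebi3 gave 0.718 with Il12a, 0.722 with Il27, its partner in interleukin 27, and 0.628 with Il23a. Within the 3 h experiment, where 8 arrays span a narrow range, Ebi3 gave -0.517 with Il12a, -0.106 with Il27 and -0.321 with Il23a. Il23a with Il12a gave 0.901 there, Il27 with Il12a 0.307 and Il27 with Il23a 0.504.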

How the data were processed

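RNA of macrophages was measured on 16 Illumina arrays, with groups from the sample titles. RNA was taken with Trizol and cleaned on columns at 3 h but extracted on columns at 6 h, per the labels' protocols, and labelled cRNA was made with an Ambion kit. The submitters' processing notes name GenomeStudio. Per the file headers, the deposited unnormalized tables give an intensity and a detection p-value for each probe and array. The 3 h column names give the group but not the sample, so those arrays were numbered by letter. The authors' processed value table holds an intensity at 3 h and, at 6 h, values centred per probe that matched log2 of the unnormalized signal apart from a constant per array (slope 1 across probes), and what the authors did to normalize it is not given here. Its column medians ran from 166.984 to 167.067 at 3 h and were 0.163 and 0.106 (unstimulated), -0.0978 and -0.0893 (Dex), 0.0458 and 0.017 (LPS), -0.0123 and -0.197 (Dex plus LPS) at 6 h, where 4003 probes were empty. It and the authors' cubic spline table served as alternatives, and 32 columns of bead counts and bead errors were not used.

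Background was corrected with limma (version 3.58.1, R 4.3.3) by normexp with an offset of 16, and each experiment's arrays were then brought to common quantiles and log2 taken. Probes entered where both arrays of a group had a detection p below 0.05, and the probe with the highest mean stood for a gene, so that 7791 genes were tested at 6 h and 8032 at 3 h, with 7458 shared. Each experiment was fitted with lmFit and eBayes on 8 arrays, with a mean for every group, and Benjamini-Hochberg adjustment ran over all tested genes. Differences between experiments were fitted on all 16 arrays. The platform annotation gave 23846 probes 1 gene symbol, 1851 probes were not listed and none had several, and 23839 probes were matched to RefSeq. The fits were tested on simulated data.

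The members and gene lists were chosen with earlier results of these data known. All members are named, with the 3 genes most correlated with each and, of each list, at most the 6 called genes with the largest differences per comparison. Il6, Tnf and Fkbp5 are named to check labels.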

Additional observations from a re-analysis of the deposited data

Results flagged for a closer look

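The effect of Dex under LPS passed a test of its difference between the experiments, on all 16 arrays, at an adjusted p below 0.05 for 2 of the 4 measured subunit genes, where 1.13% of 7458 genes did. For Il23a the 6 h difference minus the 3 h difference was -1.02 on the log2 scale (adjusted p = 0.039), and -0.27 without background correction (adjusted p = 0.386). For Il12a it was -0.99 (adjusted p = 0.031), which was under 2-fold and so not called. With 1 array left out at a time the Il12a value ranged from -1.07 to -0.91. It did not pass the adjusted p threshold in every such fit. In both genes each Dex plus LPS array lay below each LPS array at 6 h and at 3 h. Neither difference passed the adjusted p threshold without the 3 h arrays labelled Dex and unstimulated.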

How the results depend on the processing

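The numbers of subunit genes called for Dex alone at 6 h and for the 4 comparisons at 3 h were unchanged in all alternatives run. For Dex alone Il12a and Il23a were below background in both groups, so their calls could hardly change. The 3 h comparisons other than Dex plus LPS against LPS use arrays whose labels are in doubt. With 1 array left out at a time, the number called for the interaction ranged from 0 to 2 and that for 6 h minus 3 h from 0 to 1, against 1 for each as reported, and no other number of subunit genes moved beyond 1.5 times, although Il27 was lost as described for Dex plus LPS. Without background correction 1 subunit gene was called for Dex plus LPS against LPS at 6 h, 2 for the interaction (Il12a and Il27, not Il23a) and 0 for 6 h minus 3 h. An offset of 50 gave 2 for the interaction and 0 for 6 h minus 3 h, median scaling gave 0 for 6 h minus 3 h, where it moved the median of all genes from 0.02 to 0.219 (and that for Dex alone at 6 h from -0.01 to 0.274), and no filter on dim probes and the authors' processed values each gave 0 for both. In the authors' cubic spline values 1 subunit gene was called for LPS against unstimulated, 0 for Dex plus LPS against LPS, 1 against Dex, 1 against unstimulated and 0 for the interaction, and Il23a reversed to 0.1 for Dex plus LPS against LPS and 0.08 for the interaction. In that table Fkbp5 had 425.8 and 413.8 on the Dex arrays and 414.3 and 463.8 on the unstimulated arrays, 0 genes of 7791 were called by limma for Dex (679 at an unadjusted p under 0.05), and its rank correlation with the unnormalized table was 0.863 to 0.895; the cause was not tested. With the 3 h arrays in doubt left out, an alternative chosen after seeing the data, 0 were called for 6 h minus 3 h. A replicate block gave 0 for the interaction (Il23a -1.59, adjusted p = 0.0783) and changed no other call of a subunit gene. Same-numbered arrays at 6 h did not deviate together (correlations -0.22 to 0.009 over 6 pairs of groups), so the numbers were not taken as pairing, and at 3 h the block was fitted on the authors' processed values, whose columns carry the numbers. Of the single-gene values, 359 kept their side of the threshold with 1 array left out, 23 lost the call and 2 gained it. Under the other alternatives 346 kept it, 21 lost it, 3 gained it and 2 reversed. Over all genes, the number called for LPS against unstimulated at 6 h was 1333, against 774 without background correction, 781 in the authors' processed values and 204 in the cubic spline table. For Dex plus LPS against LPS at 6 h it was 293, against 138, 167 and 0 in the same order, and 140 to 179 with an LPS or Dex plus LPS array left out, so that fewer arrays remained in the groups compared. For Dex against unstimulated at 6 h it was 274, against 131 without background correction, 123 with only the arrays compared, 478 with median scaling and 163 and 607 without Dex arrays 1 and 2. For Dex plus LPS against LPS at 3 h it was 276, against 120 without background correction and 178 with an offset of 50. For the interaction it was 44, against 3 to 16 with 1 array left out other than Dex array 2 and 362 without that array, and for 6 h minus 3 h it was 55, against 0 to 104 with 1 array left out.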
